A study of Mus musculus with 23 samples.

Results

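Car9 and 8 further genes that respond to low oxygen, Bnip3, Pdk1, Slc2a1, Ldha, Egln3, Ankrd37, Adm and Ndrg1, were followed embryo by embryo in mouse embryos with and without Zfp57. They were picked by symbol because Car9 had been higher in M-Z- than in M+Z+ embryos of both sexes, to see whether other hypoxia targets rose with it and in which embryos. All 9 were among the 26183 genes of both count tables. Since the difference of M-Z- embryos from M+Z+ embryos led to the choice, it is described below for these 9 genes by levels and fold changes, and no test of it is read as a result. Its calls are counted only at the end, to show how they depend on the processing. Comparisons that share the M-Z- embryos are not independent of the choice.

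RNA was sequenced from 23 whole embryos at E13.5 (13 female, 10 male), each giving 1 library. The product of Zfp57 is a zinc finger protein that keeps imprinted regions methylated. The embryos were hybrids of a 129 mother and a father carrying the Zfp57 deletion mainly on the DBA/2J background, and they were M+Z+ (Zfp57 present in the oocyte and the embryo; 6 female, 4 male), M-Z+ (absent from the oocyte, with a functional copy from the father; 3 female, 3 male) or M-Z- (absent from both; 4 female, 3 male). The sample titles give M+Z+ and M-Z+ embryos alike as Zfp57-/+ while the count tables head the M+Z+ columns as wild type, so the zygotic genotype of the M+Z+ embryos cannot be told apart here. Transcripts of Zfp57 itself stood at 25.5 to 35.3 CPM (the count of a gene per 1000000 counts of the embryo) in the 7 M-Z- embryos and at 52.7 to 99.1 CPM in the other 16, without overlap. The log2 fold change of M-Z- against M+Z+ was -1.02 ± 0.14 (SE) in females (edgeR adjusted p = 0.000399) and -1.33 ± 0.12 in males (edgeR adjusted p = 4.7e-05). Nothing in the sources used here ties an embryo to a litter, so p-values measure the spread between these embryos. Since M+Z+ embryos need a mother with Zfp57 and the others a mother without it, M+Z+ embryos share no litter with the others. The part of the mother or litter in their differences was not tested.

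When oxygen falls, the prolyl hydroxylases Egln1, Egln2 and Egln3 no longer mark the HIF alpha subunits, Hif1a and Epas1, for destruction by the Vhl ubiquitin ligase. HIF then accumulates as protein, pairs with Arnt and binds the hypoxia response element, whose core is ACGTG or GCGTG, near its target genes. The targets raise glucose uptake and glycolysis, keep pyruvate out of the mitochondria, clear mitochondria, buffer acid and signal to blood vessels. Midgestation embryos use the pathway for the growth of the heart, the vessels and the placenta.

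The 250 bases before the gene start held at least 1 core in all 9 genes, against 42.7% of 25891 genes with such a window. The core was searched on both strands, so that CACGT and CACGC are the same core read on the other strand, and overlapping matches (as in CACGTG) counted as 1 site. There was 1 site for Car9, Pdk1, Egln3 and Ndrg1, 2 for Slc2a1 and Adm, 3 for Ldha and Ankrd37 and 4 for Bnip3. The same window of Slc16a3, a glycolysis gene described below, held 0. The 9 genes belong to a set known as hypoxia targets, so the share describes them and is no test, and a match is not a bound site. Printed here are the windows of Car9 and of the 3 genes with the most sites, 5' to 3' on the strand of the gene (mm9, NCBI build 37), with the core in capitals. The window of Car9 is chr4:43519648-43519897 on the plus strand, that of Bnip3 chr7:146101190-146101439 on the minus strand, that of Ldha chr7:54100924-54101173 on the plus strand and that of Ankrd37 chr8:47085205-47085454 on the minus strand.
Car9: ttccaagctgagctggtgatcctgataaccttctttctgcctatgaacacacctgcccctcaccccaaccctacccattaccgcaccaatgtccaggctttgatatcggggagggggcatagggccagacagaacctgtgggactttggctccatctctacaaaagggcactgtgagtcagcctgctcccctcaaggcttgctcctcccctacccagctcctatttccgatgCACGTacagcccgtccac
Bnip3: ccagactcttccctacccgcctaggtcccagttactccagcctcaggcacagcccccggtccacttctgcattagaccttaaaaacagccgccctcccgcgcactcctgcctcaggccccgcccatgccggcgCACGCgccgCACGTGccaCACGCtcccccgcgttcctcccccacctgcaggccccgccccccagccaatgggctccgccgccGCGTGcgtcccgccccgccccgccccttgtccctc
Ldha: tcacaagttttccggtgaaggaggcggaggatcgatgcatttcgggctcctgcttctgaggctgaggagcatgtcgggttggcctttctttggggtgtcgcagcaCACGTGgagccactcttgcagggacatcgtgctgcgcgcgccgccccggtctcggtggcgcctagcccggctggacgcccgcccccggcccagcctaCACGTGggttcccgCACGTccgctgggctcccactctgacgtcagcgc
Ankrd37: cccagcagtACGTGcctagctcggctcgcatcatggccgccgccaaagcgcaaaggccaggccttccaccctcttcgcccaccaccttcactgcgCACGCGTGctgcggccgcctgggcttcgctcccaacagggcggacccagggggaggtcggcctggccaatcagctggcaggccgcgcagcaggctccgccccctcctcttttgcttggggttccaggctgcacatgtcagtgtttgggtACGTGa
The single core of Car9 lay 18 bases before the start, and the nearest core of Ankrd37 6 bases before it.

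Total counts ran from 15155251 to 24078410 per embryo. 1 embryo stood apart: male M-Z- embryo 2 was the lowest of the 10 males at 38.9% of the 15528 genes that averaged 1 CPM or more, and the highest at 15.9%. CPM is not scaled for composition, and over these genes the median log2 ratio of this embryo to the M+Z+ median was -0.11. Its TMM scaling factor was 0.927, against 0.997 to 1.03 in the other males. The part of scaling in these shares was not tested. The embryo also correlated least with its group (Pearson's r of log2 values down to 0.974 across genes, against 0.985 or more in every other group). The male fold changes of M-Z- against M+Z+ embryos are given with and without it for the 9 genes and for each hypoxia gene whose male fold change is printed.

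Car9 encodes carbonic anhydrase IX, an enzyme of the cell surface that helps to export acid from hypoxic cells (chromosome 4, 43519898 to 43526597, plus strand, mm9). In the 6 M+Z+ females the lowest level was 0.184 CPM, the median 0.706 and the highest 1.21. The 3 M-Z+ females had 0.449, 0.921 and 1.19 CPM, and the 4 M-Z- females 2.25, 1.53, 1.77 and 2.92. In males the M+Z+ embryos had 0.914, 0.918, 0.465 and 0.519 CPM, the M-Z+ embryos 1.04, 0.990 and 0.583, and the M-Z- embryos 1.58, 7.40 and 2.95. Every M-Z- embryo was thus above every other embryo of its sex, and M+Z+ and M-Z+ levels overlapped. The fitted log2 fold change of M-Z- against M+Z+ was 1.53 ± 0.35 (SE, n = 4 and 6) in females and 2.53 ± 0.49 (n = 3 and 4) in males. Without male M-Z- embryo 2 it was 1.65 ± 0.38 in males. Against M-Z+ embryos, which share the M-Z- embryos with that comparison, it was 1.32 ± 0.42 in females and 2.28 ± 0.53 in males. The gene was rare: 3 to 22 reads stood behind each M+Z+ or M-Z+ value and 25 to 121 behind each M-Z- value. Its exons share 145 of 1959 bases with Arhgef39 on the opposite strand, which was at 11.7 to 18.1 CPM in the other 9 males and at 22 CPM in male M-Z- embryo 2. The opposite strands were mostly counted apart, since Tsix, which shares 1959 exon bases with Xist on the opposite strand, had medians of 7.24 to 10.5 CPM in the female groups with Xist at 2525 to 3386 CPM. In the male groups, with Xist at 0.065 to 0.98 CPM, the medians of Tsix were 0.61 to 1.05 CPM. A small carry-over of reads between the strands was not tested. In whole embryos, more cells that make a transcript and more transcript per cell cannot be told apart.

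**Figure D1:**
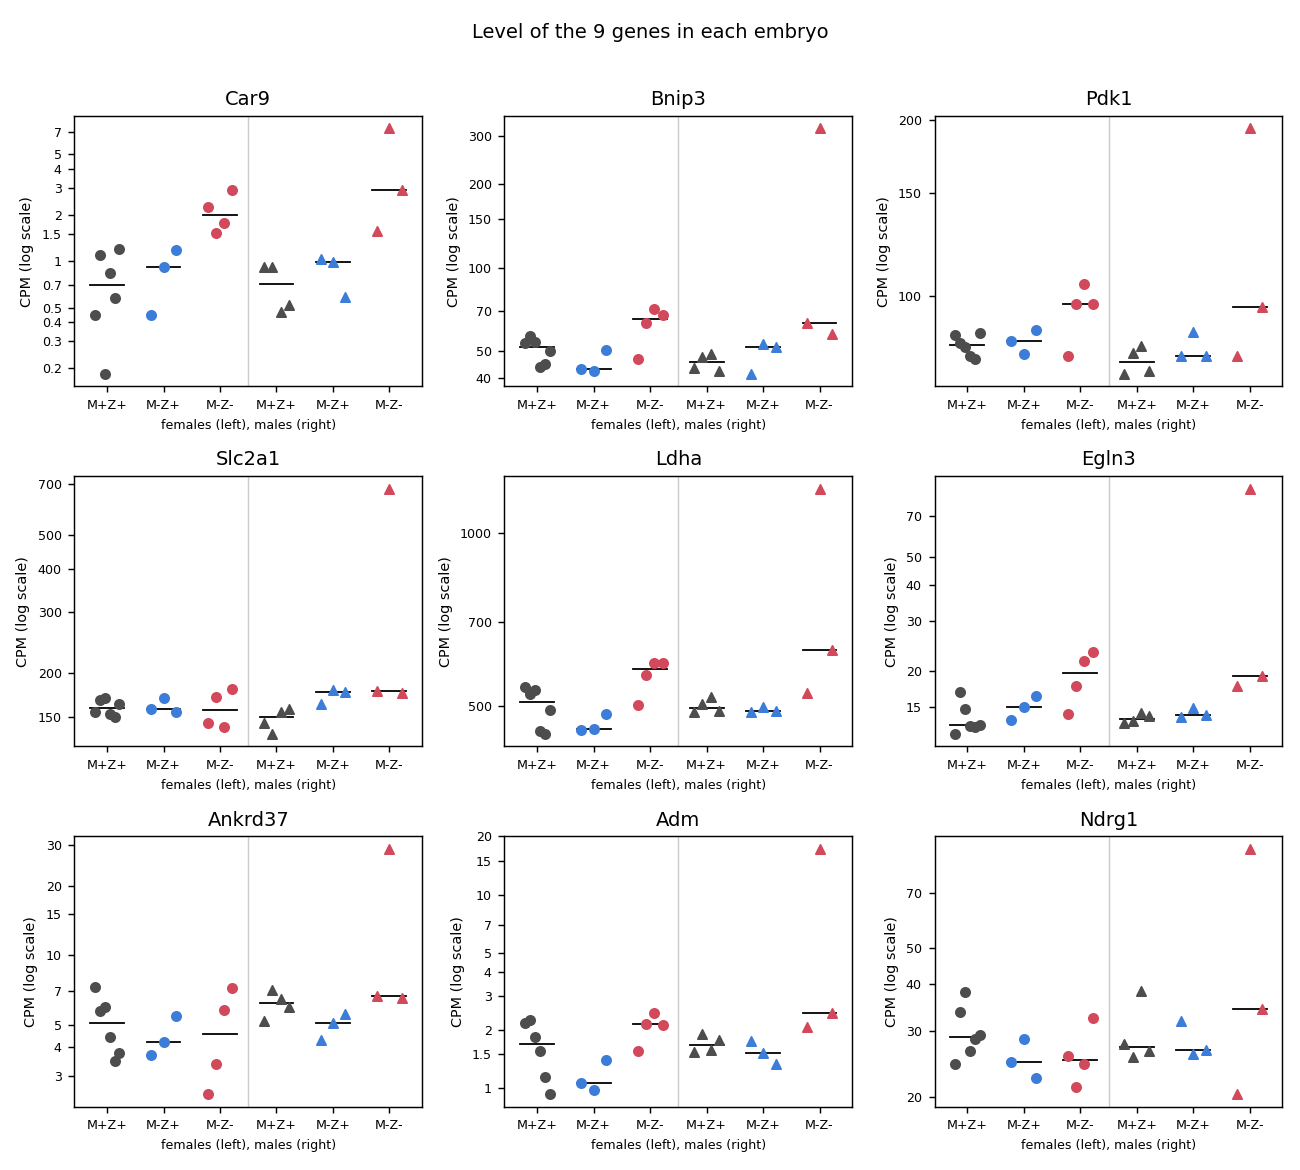
Level of each of the 9 genes in CPM (log axis) in every embryo, 1 point per embryo, females as circles and males as triangles, with a line at the group median. Car9 was above all other embryos of its sex in the 7 M-Z- embryos, from 1.53 CPM upwards, while in the other 8 panels male M-Z- embryo 2 stands alone far above the rest.

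The transcripts differed widely in level per length (TPM, counts per exon length, scaled to 1000000 in each embryo). In the 6 M+Z+ females Ldha led at 568 ± 34.0 TPM (SD), followed by Slc2a1 at 137 ± 5.47, Bnip3 at 63.6 ± 5.06, Pdk1 at 32.9 ± 1.61, Ndrg1 at 22.9 ± 3.33, Ankrd37 at 12.4 ± 3.21, Egln3 at 11.3 ± 1.28, Adm at 2.60 ± 0.786 and Car9 at 0.822 ± 0.452. The order was the same in the 4 M+Z+ males. Only the neighbours Ankrd37 and Egln3 overlapped, in females. Car9 was the lowest of the 9 in all 10 of these embryos.

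Egln3 is the prolyl hydroxylase that HIF itself induces, a brake on the pathway (chromosome 12, 55279968 to 55304861, minus strand). In M+Z+ females it ran from 12.0 CPM over a median of 12.9 to 17, and the M-Z- females had 14.1, 17.8, 21.8 and 23.3. M-Z- females 2, 3 and 4 were above all M+Z+ females, and M-Z- female 1 was not. In males the M+Z+ embryos had 13.1, 13.4, 14.3 and 13.9 CPM, the M-Z+ embryos 13.9, 14.9 and 14.0, and the M-Z- embryos 17.8, 87.2 and 19.3. All 3 M-Z- males were above the other males, 1 of them by a factor of 6.39 over the M+Z+ median. The log2 fold change of M-Z- against M+Z+ was 0.49 ± 0.13 in females, 1.68 ± 0.44 in males and 0.43 ± 0.10 in males without M-Z- embryo 2. In females this was the largest of the 8 values beside that of Car9.

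Bnip3 encodes a mitochondrial protein that promotes the removal of mitochondria (chromosome 7, 146082519 to 146101189, minus strand). M+Z+ females ran from 44.1 CPM over a median of 52.0 to 56.9, and the M-Z- females had 47.0, 63.3, 70.9 and 67.8. As for Egln3, M-Z- females 2, 3 and 4 were above the M+Z+ range and M-Z- female 1 was within it. In males the M+Z+ embryos had 43.6, 47.8, 49.1 and 42.5 CPM and the M-Z- embryos 63.6, 318 and 58.0. The fold change on the log2 scale was 0.29 ± 0.10 in females, 1.76 ± 0.46 in males and 0.41 ± 0.10 in males without M-Z- embryo 2.

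The members of glucose metabolism split in females. Pdk1, the kinase that shuts pyruvate out of the mitochondria (chromosome 2, 71711281 to 71741915, plus strand), was at 78.1 to 86.4 CPM in M+Z+ females and at 79.0, 96.7, 105 and 96.9 CPM in M-Z- females. Ldha, the lactate dehydrogenase subunit that regenerates NAD for glycolysis (chromosome 7, 54101174 to 54110997, plus strand), was at 446 to 539 CPM and at 502, 565, 594 and 594 CPM in the same groups. Of the M-Z- females, embryos 2, 3 and 4 were above the M+Z+ range at both genes and embryo 1 at neither. The log2 fold changes of the group were 0.19 ± 0.06 and 0.18 ± 0.07. Slc2a1, the glucose transporter GLUT1 (chromosome 4, 118781350 to 118809934, plus strand), was at 150 to 170 CPM in M+Z+ females and at 144, 171, 141 and 180 CPM in M-Z- females. Its groups overlapped, and its log2 fold change was -0.01 ± 0.07.

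In males the same 3 genes were highest in M-Z- embryo 2. Slc2a1 had 144, 134, 155 and 158 CPM in M+Z+ males, 163, 179 and 177 in M-Z+ males and 178, 680 and 176 in M-Z- males, so that M-Z- embryos 1 and 3 were level with the M-Z+ males. Pdk1 had 73.6 to 82.1 CPM in M+Z+ males and 79.1, 193 and 95.6 in M-Z- males. Ldha had 488 to 518 CPM in M+Z+ males and 525, 1197 and 626 in M-Z- males. Their log2 fold changes of M-Z- against M+Z+ were 1.30 ± 0.38, 0.72 ± 0.24 and 0.71 ± 0.22, and without M-Z- embryo 2 they were 0.26 ± 0.07, 0.17 ± 0.08 and 0.20 ± 0.07.

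Adm encodes adrenomedullin, a secreted peptide that dilates vessels and is needed for the lymphatics of the embryo (chromosome 7, 117771171 to 117773334, plus strand). It was at 0.931 to 2.26 CPM in M+Z+ females and at 1.57, 2.16, 2.46 and 2.13 CPM in M-Z- females, with overlap. In males the M+Z+ embryos had 1.54, 1.90, 1.57 and 1.79 CPM and the M-Z- embryos 2.08, 17.3 and 2.45, without overlap. The log2 fold change was 0.32 ± 0.25 in females and 2.19 ± 0.60 in males, the latter 0.42 ± 0.25 without M-Z- embryo 2.

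Ankrd37, which encodes an ankyrin repeat protein (chromosome 8, 47082262 to 47085204, minus strand), and Ndrg1, whose product is tied to cell differentiation and stress (chromosome 15, 66760880 to 66801203, minus strand), did not follow Car9 in females. Ankrd37 was at 3.49 to 7.24 CPM in M+Z+ females and at 2.5, 3.37, 5.77 and 7.17 CPM in M-Z- females. Ndrg1 was at 24.5 to 38.1 CPM and at 25.7, 21.2, 24.6 and 32.6 CPM. Neither gene had an M-Z- female above the M+Z+ range, and the log2 fold changes were -0.12 ± 0.26 and -0.21 ± 0.12. In males Ankrd37 was at 5.19 to 7.04 CPM in M+Z+ embryos and at 6.68, 28.9 and 6.50 CPM in M-Z- embryos, and Ndrg1 at 25.5 to 38.4 CPM and at 20.3, 92.1 and 34.4 CPM. Their male rises of 1.27 ± 0.43 and 0.80 ± 0.37 thus came from M-Z- embryo 2, without which the changes were 0.10 ± 0.17 and -0.11 ± 0.19.

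**Figure D2:**
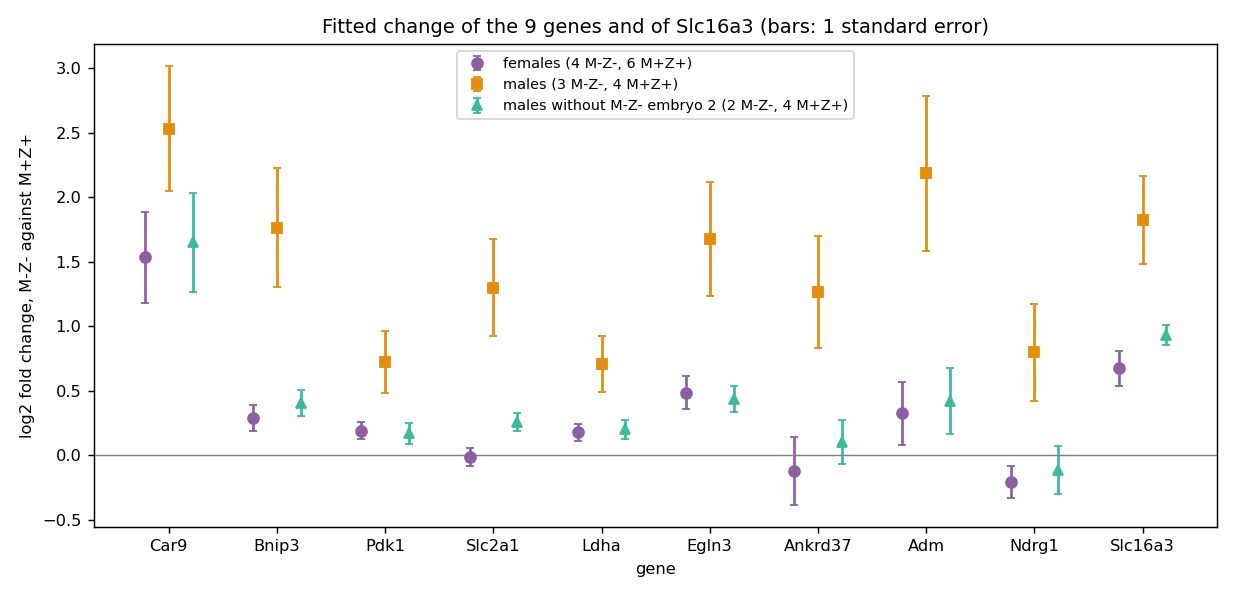
Fitted log2 fold change of M-Z- against M+Z+ embryos with 1 standard error, for females, for males and for males without M-Z- embryo 2. Without that embryo the male changes of 8 of the 9 genes come down to between -0.11 and 0.43, next to the female values, while Car9 stays at 1.65 and Slc16a3, a gene of the glycolysis list, at 0.93.

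By embryo, M-Z- female 1 had only Car9 above the range of the M+Z+ females, and M-Z- females 2, 3 and 4 had 6 of the 9 genes above it, where 14.4%, 19.5%, 18.0% and 14.3% of all genes averaging 1 CPM or more were in these 4 embryos. M-Z- males 1, 2 and 3 had 6, 9 and 7 of the 9 genes above the range of the M+Z+ males, against 26.6%, 23.4% and 23.1% of all genes. M-Z+ females had at most 1 (14.9% to 18.9% of all genes). M-Z+ males had 2 to 5 (23.0% to 25.2%), and M+Z+ male 3 also had 5 of the 9 above the other M+Z+ males (28.3%). M-Z- male 2 was the highest of the 10 males at all 9 genes, also on the TPM scale. Its levels were 2.41 to 10.3 times the M+Z+ median, and by log2 ratio to that median (0.5 CPM added) the 9 genes ranked from 7 (Adm) to 105 (Ldha) among 15528 genes. In the other 6 M-Z- embryos, Car9 was the single one of the 9 that passed 2 times the M+Z+ median, where 0.19% to 0.72% of all genes did.

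A gene was called across all genes by edgeR's quasi-likelihood test at an adjusted p below 0.05 and a log2 fold change of 0.5 or more either way. Against M-Z+ embryos, 0 of the 9 genes were called in either sex by edgeR, where 0.196% of genes in females and 0.15% in males were called in either direction. In these 2 comparisons, 6 of the 9 in females and 9 of the 9 in males had an unadjusted p below 0.05, against 8.64% and 9.5% of all genes. Without male M-Z- embryo 2 the male count by edgeR was 5 of the 9, against 5.76% of all genes. With all embryos, DESeq2 gave 6 of the 9 in females and 5 in males, against 6.59% and 6.98% of all genes. DESeq2 called 0 of the 9 in females (25 higher and 21 lower of 22354 genes) and 1 in males (29 and 28 of 22139 genes). The log2 fold changes against M-Z+ embryos were 0.46 ± 0.12 for Bnip3, 0.37 ± 0.15 for Egln3, 0.29 ± 0.08 for Ldha and 0.85 ± 0.31 for Adm in females. In males the 9 values ran from 0.67 (Pdk1) to 2.35 (Adm), and without M-Z- embryo 2 from -0.02 (Ndrg1) to 1.40 (Car9). The M-Z- embryos are those on which the genes were chosen, so these values describe the choice. The edgeR count was 1 with female M-Z- replicate 1 left out and 5 with male M-Z- replicate 3 left out. The calls over all genes in those fits are not given, so the counts show only the dependence on single embryos.

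In levels, the choice of the genes also bears on which groups overlap. M-Z- females lay wholly above M+Z+ females at 1 of the 9 genes, Car9, where 2.24% of all genes did so (2.05% lay wholly below). M-Z- males lay wholly above M+Z+ males at 6 of the 9 (Car9, Bnip3, Slc2a1, Ldha, Egln3 and Adm), where 4.41% of all genes did so (6.36% below). Of the 72 further hypoxia genes described below, 4 in females (Egln1, Gpi1, Pfkfb3 and Stc2) and 24 in males lay wholly above, and 2 (Bnip3l and Angptl4) and 4 (Angptl4, Tfrc, Trf and Fut11) wholly below.

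Absence of Zfp57 from the oocyte alone was not accompanied by a measured change of the 9 genes. Between M-Z+ and M+Z+ embryos, 0 of 9 were called in either sex by edgeR's quasi-likelihood test, at a background of 0.0593% of genes in females and 0.048% in males, 0 had an unadjusted p below 0.05 and DESeq2 called 0. Car9 changed by 0.22 ± 0.44 in females (95% interval -0.71 to 1.14, edgeR adjusted p = 0.935) and by 0.25 ± 0.58 in males (95% interval -1.01 to 1.51, edgeR adjusted p = 0.945). These intervals do not show that the groups were alike. The male spread is shared with the M-Z- males, embryo 2 included, and with the compared groups alone 0 of 9 were called as well. Adm had the largest change in females, -0.53 ± 0.30 (edgeR adjusted p = 0.74), with 1.07, 0.978 and 1.41 CPM in the M-Z+ females. The M-Z+ females were at 42.5 to 50.5 CPM of Bnip3, 79.6 to 87.5 of Pdk1, 155 to 170 of Slc2a1, 453 to 484 of Ldha, 13.46 to 16.4 of Egln3, 3.70 to 5.46 of Ankrd37 and 22.5 to 28.6 of Ndrg1, each range overlapping that of the M+Z+ females. M-Z+ and M+Z+ females thus lay wholly apart at 0 of the 9 genes, where 2.24% of all genes were wholly higher and 1.03% wholly lower in M-Z+. The M-Z+ males were at 41.4 to 53.1 CPM of Bnip3, 79.0 to 86.7 of Pdk1, 487 to 496 of Ldha, 4.29 to 5.53 of Ankrd37, 1.34 to 1.76 of Adm and 26.1 to 31.9 of Ndrg1. Slc2a1 was the single one of the 9 at which M-Z+ males lay wholly above M+Z+ males, where 7.39% of all genes did the same and 5.06% lay wholly below, and its log2 fold change was 0.21 ± 0.38 (edgeR adjusted p = 0.925).

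The sexes did not differ measurably either. In M+Z+ embryos, females against males, 0 of 9 genes were called by edgeR (minimum log2 fold change 0.3, background 0.0817%), 0 had an unadjusted p below 0.05 and DESeq2 called 0. Car9 differed by 0.03 ± 0.48 on the log2 scale (edgeR adjusted p = 0.996). For the difference between the sexes in the effect of M-Z- against M+Z+, 0 of 9 were called by edgeR or DESeq2 (background 0%), but 8 of 9 by edgeR and 4 of 9 by DESeq2 had an unadjusted p below 0.05, all with the larger rise in males, where 6.46% of all genes by edgeR and 5.02% by DESeq2 did. The M-Z- embryos that led to the choice of the genes enter this difference too. The largest was 1.85 ± 0.66 for Adm (edgeR adjusted p = 0.725), and Car9 was at 0.99 ± 0.64 (edgeR adjusted p = 0.808). Without male M-Z- embryo 2, the number with an unadjusted p below 0.05 by edgeR was 1 of 9 (3.02% of all genes), Slc2a1 at 0.27 ± 0.11 (edgeR adjusted p = 1), and Adm was at 0.09 ± 0.37. The male log2 fold change of Car9 was 1.65 without that embryo, next to the female value given above. For M-Z+ against M+Z+, 0 of 9 differed between the sexes, and 0 had an unadjusted p below 0.05 by either tool.

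To see how far the pattern reached into the pathway, 73 further genes of 3 lists were read the same way: oxygen sensing (9 genes), glycolysis (19) and other HIF targets (45). The lists were chosen with earlier results of these data known, and their genes were read in the same embryos. Shares of the list beside those of all genes therefore describe these embryos and are no test of the list. After a filter on low counts, 72 were tested in each comparison. In females, M-Z- against M+Z+, 1 was called higher and 1 lower (background 0.285% and 0.279%), and 58 of 72 had a positive fold change against 48.8% of all genes. The median log2 fold change was 0.12 against 0.00 over all tested genes, and 31 of 72 had an unadjusted p below 0.05 against 15.5% of all genes. In males, 1 was called higher and 0 lower (background 0.264% and 0.126%), 65 of 72 were positive against 50.4% of all genes, and the median was 0.53 against 0.00. In males 47 of 72 had an unadjusted p below 0.05 against 16.95% of all genes. Without M-Z- embryo 2 the male values were 1 called higher and 0 lower (36 and 15 of all 16881 genes), 52 positive (49.9% of all genes), a median of 0.12 and 29 at an unadjusted p below 0.05 (11.9% of all genes). The count of calls in males depended on the embryos, since it rose to 5 when M-Z- replicate 1 was left out and to 40 when M-Z- replicate 3 was, and fell to 0 with any one of the M+Z+ embryos left out. In females it was 4 when M-Z- replicate 1 was left out, 0 when replicate 2 was, and 1 when replicate 3 or 4 was. Except without male M-Z- embryo 2, the calls over all genes in these fits are not given. The counts therefore show only how they depended on single embryos.

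The gene called higher in both sexes was Slc16a3, which encodes MCT4, the transporter that carries lactate out of glycolytic cells (chromosome 11, 120809798 to 120820314, plus strand). It was at 36.2 to 48.8 CPM in M+Z+ females (median 40.2), at 48.4, 37.2 and 57.2 CPM in M-Z+ females and at 42.4, 72.2, 76.6 and 72.0 CPM in M-Z- females. In males the M+Z+ embryos had 36.3, 34.7, 35.6 and 36.2 CPM, the M-Z+ embryos 43.3, 50.5 and 51.4, and the M-Z- embryos 67.5, 225 and 69.0. M-Z- females 2, 3 and 4 and all M-Z- males were above the rest of their sex, and M-Z- female 1, as at Egln3, Bnip3, Pdk1 and Ldha, was not. The log2 fold change was 0.67 ± 0.14 in females (edgeR adjusted p = 0.0206) and 1.82 ± 0.34 in males (edgeR adjusted p = 0.0371). In males it was 0.93 ± 0.08 without M-Z- embryo 2 (edgeR adjusted p = 1.3e-05). Leaving out 1 embryo at a time, the edgeR adjusted p ran from 0.000185 to 0.0941 in females, where the call was lost without M-Z- replicate 2, 3 or 4, and from 1.3e-05 to 0.151 in males, where leaving out any M+Z+ embryo lost it.

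Angptl4 moved the other way. This gene, a secreted inhibitor of lipoprotein lipase that HIF and fasting both induce, was at 24.4 to 35.2 CPM in M+Z+ females and at 19.8, 16.4, 19.1 and 18.0 CPM in M-Z- females. It fell by 0.62 ± 0.11 on the log2 scale (SE, n = 4 and 6, edgeR adjusted p = 0.00899), and the call was lost without M-Z- replicate 2 (log2 fold change -0.54, edgeR adjusted p = 0.0551; range over the embryos left out 0.0074 to 0.0551). The 3 M-Z+ females, at 19.7, 18.8 and 15.4 CPM, were also below the M+Z+ range (log2 fold change -0.65 ± 0.12, edgeR adjusted p = 0.0741). M-Z- males had 17.2, 10.8 and 25.3 CPM against 26.2 to 32.4 in M+Z+ males (log2 fold change -0.69 ± 0.18, edgeR adjusted p = 0.122, and -0.46 ± 0.13 without M-Z- embryo 2, edgeR adjusted p = 0.198). DESeq2 called the gene lower in M-Z- males (DESeq2 adjusted p = 0.0185). With 1 embryo left out at a time, edgeR did so only without M-Z- replicate 3 (edgeR adjusted p = 0.00146; range over the embryos left out 0.00146 to 0.298). Male M-Z- embryo 2, the highest at 57 of the 72 genes, was the lowest of the males at Angptl4.

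Of the genes of oxygen sensing, 0 of 9 were called by edgeR or DESeq2 in either sex. By edgeR, 3 of 9 in females and 4 of 9 in males had an unadjusted p below 0.05, against 15.5% and 16.95% of all genes, and 8 of 9 had a positive fold change in each sex. Their median log2 fold change was 0.07 in females and 0.13 in males. Without M-Z- embryo 2 the male values were 3 of 9 (11.9% of all genes), 6 of 9 and 0.13. Hif1a, whose product is regulated mainly as protein, was at 184 to 212 CPM in M+Z+ females, 191 to 216 in M-Z- females, 181 to 193 in M+Z+ males and 177 to 187 in M-Z- males, with 187 in M-Z- embryo 2. Its log2 fold change was 0.05 ± 0.05 in females (edgeR adjusted p = 0.685) and 0.01 ± 0.06 in males (edgeR adjusted p = 0.932), or -0.04 ± 0.06 without M-Z- embryo 2. Epas1, which encodes HIF-2 alpha, had log2 fold changes of 0.18 ± 0.07 in females and 0.29 ± 0.10 in males, the latter 0.14 ± 0.08 without M-Z- embryo 2. Those of Vhl were 0.00 ± 0.06 and 0.12 ± 0.10, the latter -0.01 ± 0.08 without it. Egln1, itself a HIF target, was at 209 CPM in M-Z- male 2 and at 78.2 to 102 in the other 9 males, with log2 fold changes of 0.19 ± 0.05 in females (edgeR adjusted p = 0.0965) and 0.75 ± 0.22 in males (edgeR adjusted p = 0.154), or 0.24 ± 0.09 without M-Z- embryo 2 (edgeR adjusted p = 0.309).

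The glycolysis list had a median log2 fold change of 0.16 in females and 0.70 in males, the latter 0.25 without M-Z- embryo 2. In both sexes 1 of its 19 genes, Slc16a3, was called. Hk2, the inducible hexokinase, rose by 0.39 ± 0.09 in females (edgeR adjusted p = 0.0317) and Gpi1, the second enzyme of the path, by 0.20 ± 0.05 (edgeR adjusted p = 0.0438), both below the minimum change of 0.5. In males their log2 fold changes were 1.58 ± 0.37 (edgeR adjusted p = 0.093) and 0.74 ± 0.19 (edgeR adjusted p = 0.117), and without M-Z- embryo 2 they were 0.64 ± 0.15 (edgeR adjusted p = 0.112) and 0.31 ± 0.06 (edgeR adjusted p = 0.0627). Pgk1, phosphoglycerate kinase, was at 263 to 322 CPM in M+Z+ females and 284 to 339 in M-Z- females, with a log2 fold change of 0.15 ± 0.07 (edgeR adjusted p = 0.311), and at 252 to 296 CPM in M+Z+ males and 302, 779 and 333 CPM in M-Z- males, with one of 0.80 ± 0.26 (edgeR adjusted p = 0.171), or 0.17 ± 0.08 without M-Z- embryo 2 (edgeR adjusted p = 0.427). Aldoa, an aldolase, was at 1102 CPM in M-Z- male 2 and 313 to 334 in M+Z+ males, and its male log2 fold change was 1.07 ± 0.28 (edgeR adjusted p = 0.117) and without that embryo 0.37 ± 0.06 (edgeR adjusted p = 0.0094).

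Of the other HIF targets, 33 of 44 tested had a positive fold change in females (median 0.12) and 39 of 44 in males (median 0.52, or 0.09 without M-Z- embryo 2). Gys1, glycogen synthase, rose by 0.32 ± 0.06 in females (edgeR adjusted p = 0.0202), below the minimum change. In males it was at 0.64 ± 0.17 (edgeR adjusted p = 0.126, DESeq2 adjusted p = 0.0244), or 0.26 ± 0.07 without M-Z- embryo 2 (edgeR adjusted p = 0.14). Vegfa, the growth factor of blood vessels, was at 93.6 to 119 CPM in M+Z+ females and 104, 126, 127 and 141 CPM in M-Z- females (log2 fold change 0.26 ± 0.08, edgeR adjusted p = 0.107). In males it was at 79.9 to 116 CPM in M+Z+ embryos and 139, 431 and 116 in M-Z- embryos (log2 fold change 1.32 ± 0.35, edgeR adjusted p = 0.122), and without M-Z- embryo 2 the change was 0.40 ± 0.11 (edgeR adjusted p = 0.179). Of the 15 other carbonic anhydrase genes, edgeR tested 12 in females and 13 in males and called 0, and DESeq2 tested 15 in each sex and called 0. An unadjusted p below 0.05 by edgeR was found in females for 5 genes (15.5% of all genes), Car12 higher and Car1, Car2, Car3 and Car10 lower. In males it was found for 3 (16.95% of all genes), Car12 higher, at 22.2, 40.2 and 20.1 CPM in M-Z- against 18.6 to 21.4 CPM in M+Z+ embryos, and Car2 and Car3 lower. The medians were -0.12 in females and 0.11 in males. Without male M-Z- embryo 2 the male values were 0 called, 0 at an unadjusted p below 0.05 and a median of 0.03. Between M-Z+ and M+Z+ embryos edgeR called 0 of the 72 hypoxia list genes in either sex. By edgeR, 3 in females and 0 in males had an unadjusted p below 0.05 (6.64% and 7.86% of all genes). DESeq2 called 1, Angptl4, lower in females, where it called 13 higher and 2 lower of 22354 genes. Between M-Z- and M-Z+ embryos edgeR called 0, with 23 in females and 41 in males at an unadjusted p below 0.05 (8.64% and 9.5% of all genes), 17 in males without M-Z- embryo 2 (5.76%), and DESeq2 also called 0. That count became 1 when female M-Z- replicate 1 was left out, 20 when male M-Z- replicate 3 was and 1, Slc16a3, when male M-Z- replicate 2 was. For the difference between the sexes in the effect of M-Z- against M+Z+, 0 of 72 were called by edgeR or DESeq2, with 32 at an unadjusted p below 0.05 by edgeR (6.46% of all genes) and 1 without male M-Z- embryo 2 (3.02%).

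**Figure D3:**
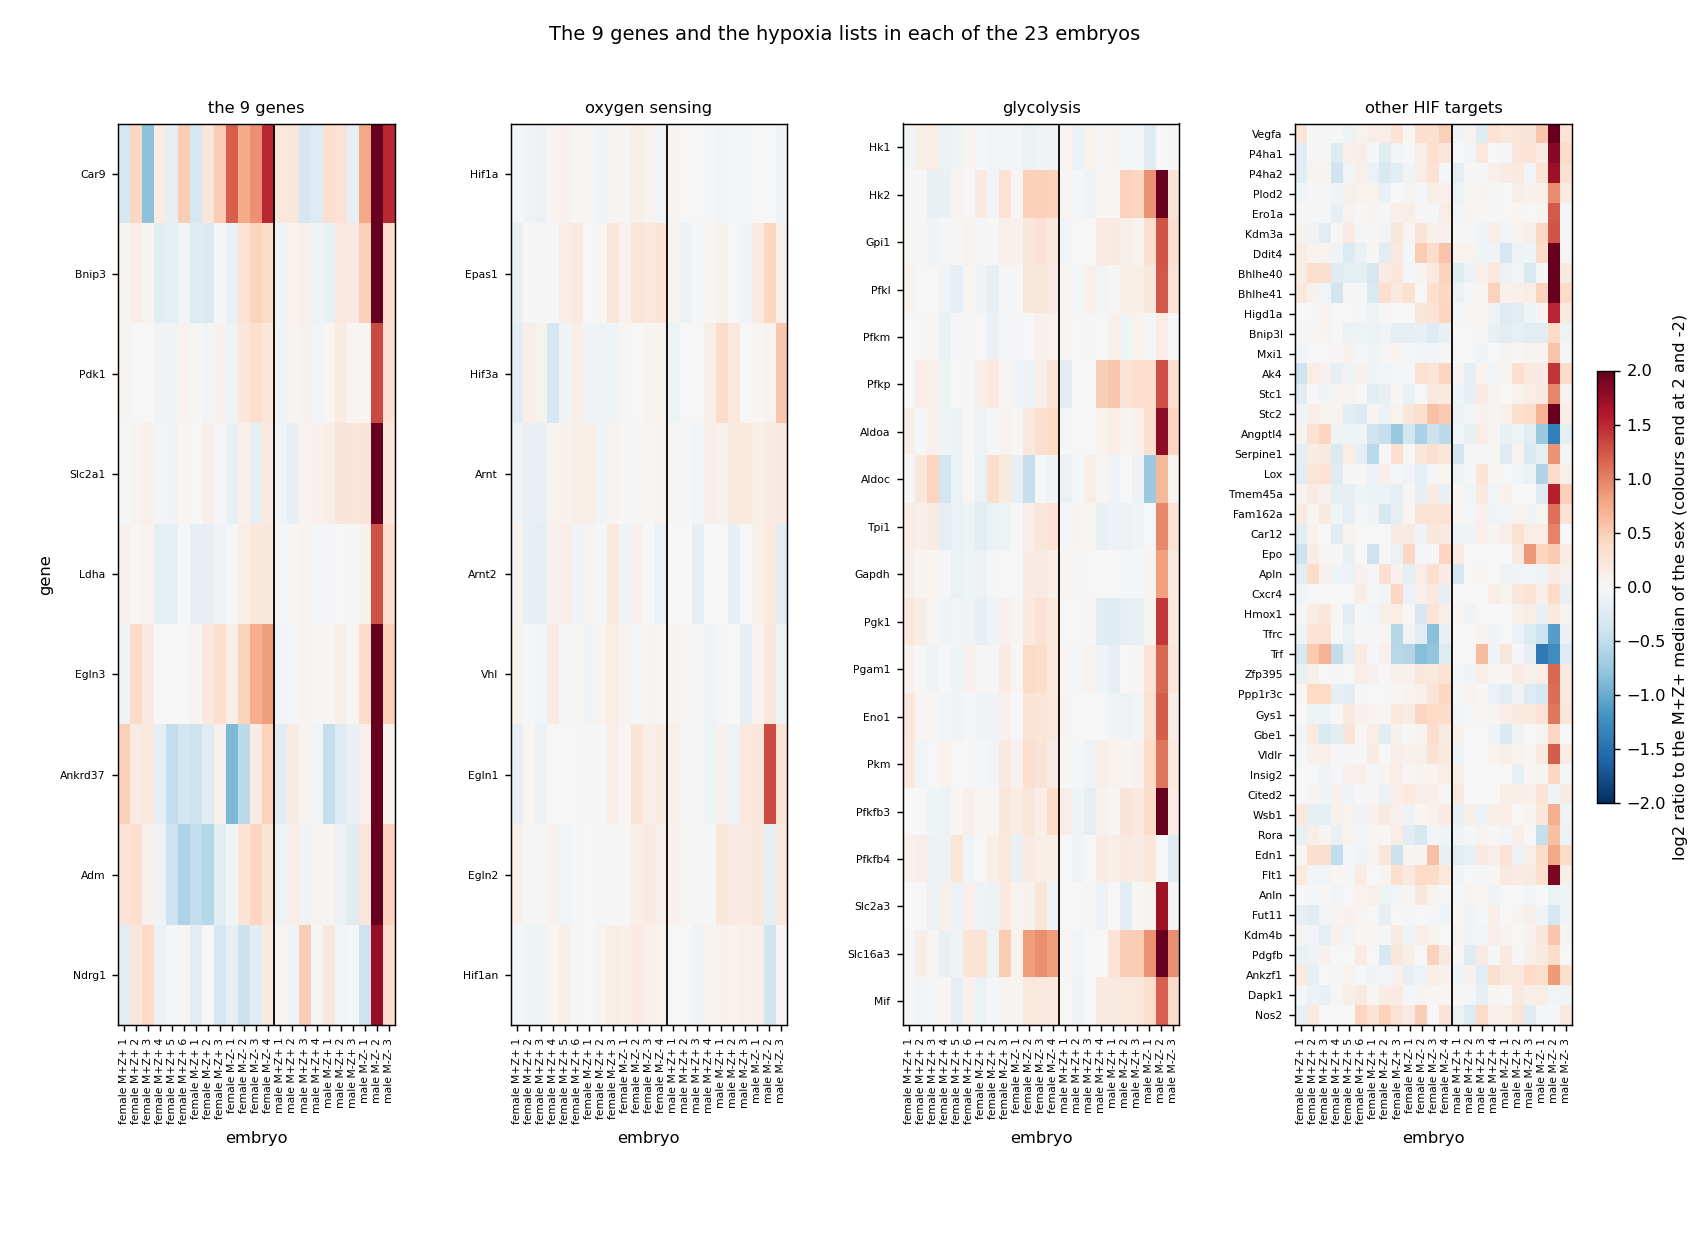
Log2 ratio of each gene to the M+Z+ median of the sex (0.5 CPM added to both) in the 23 embryos, for the 9 genes and the 3 hypoxia lists, with a line between females and males. The column of male M-Z- embryo 2 is red over most rows except oxygen sensing, with a median of 0.92 over the list, and M-Z- females 2, 3 and 4 show a paler red with medians of 0.12, 0.19 and 0.16.

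Embryo by embryo, the 72 list genes were set beside all genes in the same way. M-Z- females 1, 2, 3 and 4 were above all M+Z+ females at 8, 32, 43 and 37 of 72 genes, against 14.4%, 19.5%, 18.0% and 14.3% of all genes. M-Z+ females 1 and 2 were so at 3 each (14.94% and 14.85% of all genes) and M-Z+ female 3 at 25 (18.9%). The median log2 ratio of M-Z+ female 3 to the M+Z+ median was 0.09, next to the 0.12 of M-Z- female 2. M-Z- females 2, 3 and 4 were the highest of the 13 females at 14, 20 and 15 of 72 genes, or 19.4%, 27.8% and 20.8%, against 9.57%, 7.82% and 6.74% of all 15458 genes that averaged 1 CPM or more. M-Z- female 1 was the highest at 1 of 72 (5.43% of all genes), and its median log2 ratio to the M+Z+ median was 0.02. In males M-Z- embryo 2 was the highest at 57 of 72 genes, or 79.2% (15.88% of all genes). M-Z- embryos 1 and 3 were so at 3 and 1 (12.85% and 10.46% of all genes). Those 2 were above all M+Z+ males at 40 and 35 of 72 genes, against 26.6% and 23.1% of all genes, with median log2 ratios of 0.13 and 0.13. The 3 M-Z+ males were so at 19, 25 and 24 of 72 genes (25.2%, 23.7% and 23.0% of all genes). Each M+Z+ male was above the other M+Z+ males at 6 to 26 of 72 (17.3% to 35.5% of all genes). M-Z- embryo 2 passed 2 times the M+Z+ median at 35 of 72 genes and at 1.62% of all genes. No other M-Z- embryo did so at any of the 72. Few genes of any kind did so there: 0.19% to 0.34% in M-Z- females and 0.72% and 0.66% in M-Z- males 1 and 3.

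**Figure D4:**
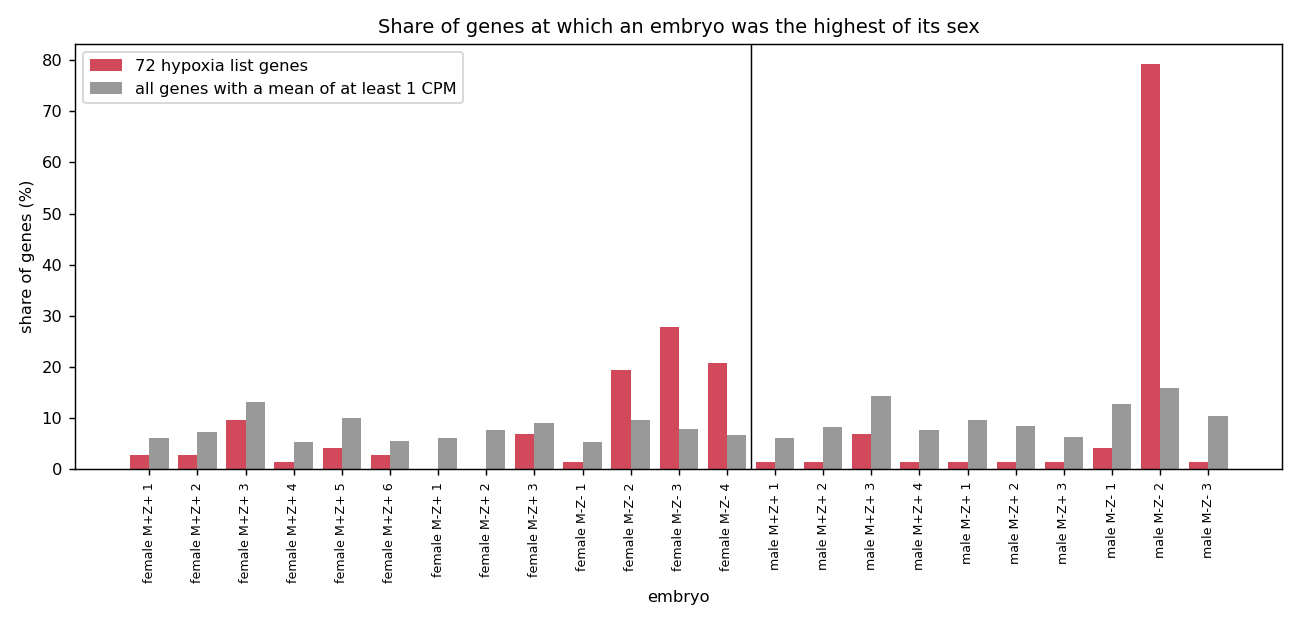
Share of the 72 hypoxia list genes (red) and of all genes averaging 1 CPM or more (grey) at which an embryo was the highest of its sex, in percent. Male M-Z- embryo 2 reaches 79.2% of the list, M-Z- females 2, 3 and 4 reach 19.4% to 27.8%, and each other embryo is below its own grey bar.

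Other transcripts moved in male M-Z- embryo 2 as well, and their part in the values above was not tested. The following were named after their values were seen. The heat shock genes Hspa1a and Hspa1b were at 89.1 and 150 CPM there and at 1.04 to 1.85 and 2.27 to 4.36 CPM in the other 9 males, and the immediate early gene Fos was at 22 against 1.32 to 3.25. The embryonic globin Hbb-y was at 21680 CPM there, at 7340 and 2938 in M-Z- males 1 and 3, and at 974 to 3615 in the other 7 males. The summed level of 12 erythroid genes was 33840 CPM in that embryo, 16010 to 18700 in M+Z+ males, 15460 to 17960 in M-Z+ males and 18250 and 18600 in the other M-Z- males. The sum of 9 liver genes was 1684 CPM there and 2099 in M-Z- male 1, against 4475 to 6754 in the other 8 males, and that of 9 yolk sac genes was 209 and 219 against 342 to 436. The sum of 10 genes of embryonic tissues such as heart, muscle and cartilage was 2301 CPM and lay within the range of the other males (1917 to 2420).

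The summed level of 15 placental genes was 21.5 to 29.7 CPM over all 23 embryos and 25.2 CPM in male M-Z- embryo 2. Gjb2 alone gave 19.0 to 27.7 CPM, and Plac1, also with reads in every embryo, 0.856 to 3.01. Synb had reads in 19 embryos, Syna in 15, Prl3b1 in 8, Gcm1 in 5 and Prl8a9 in 2, at no more than 0.519 CPM in any. Prl2c2, a trophoblast hormone gene, had no read in any embryo, and each of the 7 others, Tpbpa and Prl3d1 among them, had reads in 1 embryo, at no more than 0.367 CPM. Such traces were not spread evenly: 5 of the 15 genes had no read in M+Z+ female 3, against 9 to 13 in the other embryos. In M-Z- females the sum of the erythroid genes was 12130 to 17160 CPM, overlapping that of the M+Z+ females (13010 to 20630). The globin genes differed in direction by their medians (Hba-x is not among the 12). The embryonic globin Hbb-y had a median of 4366 CPM in M-Z- females (4186 to 5884), 2747 in M-Z+ females (2648 to 3375) and 2093 in M+Z+ females (1289 to 6758). Hbb-bh1 and Hba-x, also embryonic, had medians of 129 and 527 CPM in M-Z- females against 40.4 and 170 in M+Z+ females, with overlap. The adult globin Hbb-b1 had a median of 4739 CPM in M-Z- females (2757 to 6447) against 7240 in M+Z+ females (5945 to 9277). The part of these differences in the values of the hypoxia genes was not tested. The sum of the liver genes was 2455 to 4082 against 3282 to 7182, and that of the yolk sac genes 231 to 336 against 263 to 468. The sums of 10 gut epithelium genes (6.41 to 9.99 CPM) and of 7 adrenal genes (38.3 to 61.6) stood beside 6.69 to 10.8 and 18.6 to 47.6 in M+Z+ females, and in M-Z- males the adrenal sum was 74.9, 236 and 37.6 CPM against 22.5 to 28.8, most of it Hsd3b6 at 64.2, 226 and 20.1 CPM.

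**Figure D5:**
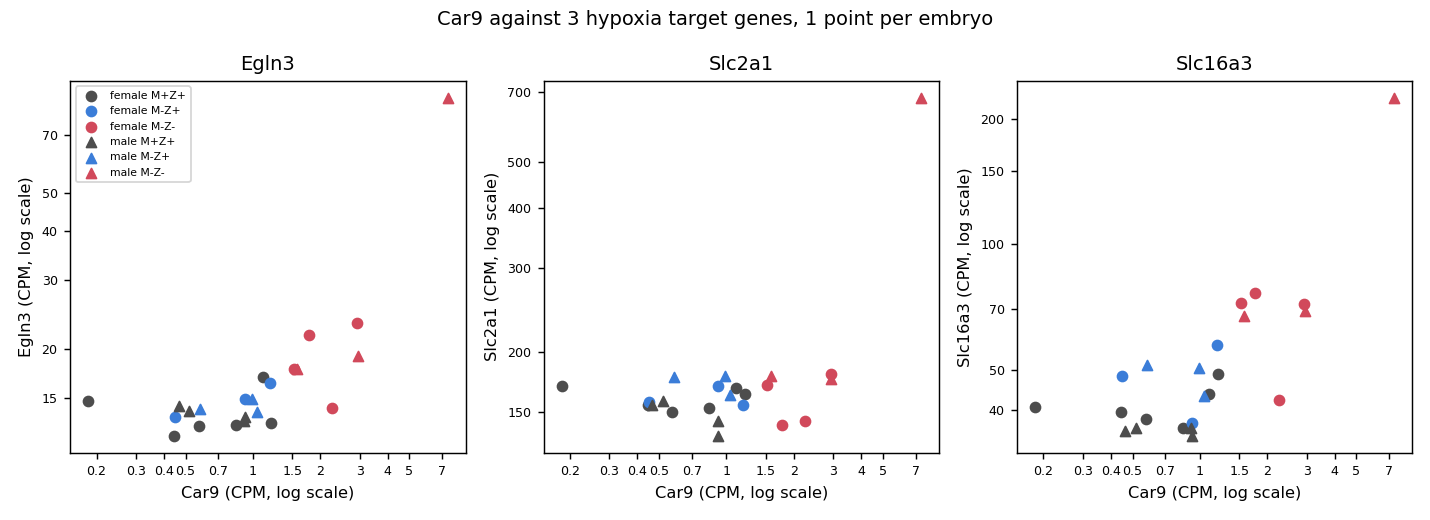
Car9 against Egln3, Slc2a1 and Slc16a3 in CPM on log axes, 1 point per embryo, with colours for genotype and shapes for sex. M-Z- embryos lie to the right in each panel at 1.53 CPM of Car9 or more, and male M-Z- embryo 2, at 7.40 CPM, is the top right point of all 3 panels.

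Across embryos, the likeness of a gene to Car9 was taken as Pearson's r of log2(CPM + 0.5), over the 13 females and over the 10 males, ranked by the lower of the 2 values over 15377 genes. The embryos include the 3 genotypes, so genes that differ between genotypes score high. The 5 most alike were Ciart, Mettl9, Inpp5f, Plagl1 and Pfkfb3. Ciart (0.83 in females, 0.90 in males) is a repressor of the circadian clock and Mettl9 (0.83 and 0.89) a histidine methyltransferase. Inpp5f (0.83 and 0.88) is a phosphatase of inositol lipids and Plagl1 (0.80 and 0.81) a zinc finger gene. Pfkfb3 (0.80 and 0.85) is the glycolytic regulator of the list above. The paper lists Inpp5f and Plagl1 among the imprinted genes increased in M-Z- embryos of both sexes. Spearman's rho of the 5 was 0.76 to 0.90 in females and 0.64 to 0.85 in males. Without the 2 embryos farthest from the median of Car9, r was 0.63 to 0.82 and 0.58 to 0.81. On deviations from the genotype means, r was 0.27 in females and 0.015 in males for Plagl1. For the others of the 5 it was 0.45 to 0.62 and 0.68 to 0.795. Of the other 8 members, Egln3 ranked highest, at 53, with r of 0.67 and 0.90. Bnip3, Pdk1 and Ldha had r of 0.48, 0.52 and 0.46 in females and 0.87, 0.89 and 0.91 in males. Taken on deviations from the genotype means, r in females was 0.26 for Egln3, -0.01 for Bnip3, -0.02 for Pdk1 and -0.13 for Ldha, and in males 0.84, 0.79, 0.87 and 0.88. On the values themselves, Adm, Slc2a1, Ankrd37 and Ndrg1 had r of 0.27, 0.00, -0.11 and -0.21 in females and 0.89, 0.84, 0.81 and 0.73 in males. The male values of r rested on few embryos. Without the 2 farthest they were 0.11 for Pdk1, 0.19 for Slc2a1, 0.29 for Ldha, -0.07 for Ankrd37 and -0.66 for Ndrg1. Egln3 and Adm were at 0.58 and Bnip3 at 0.47.

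Reads over strain variants assigned to the paternal (DBA) or maternal (129) allele were available at 4 of the 9 genes. The P-score is the paternal share of these reads minus 0.5, computed where an embryo had more than 10 of them. Car9 had 6 such reads in all 23 embryos together, and Ldha, Ankrd37, Adm and Ndrg1 had 0. Bnip3, with 333 to 2419 reads per embryo, had a paternal share of 47.0% to 54.2%, Pdk1 45.6% to 59.8% and Egln3, with 32 to 312 reads, 34.4% to 59.0%. Slc2a1 leaned to the paternal allele in every embryo, at 59.2% to 71.5%. The paternal allele was the DBA allele in every embryo, so parent of origin, strain and read assignment cannot be told apart here. In male M-Z- embryo 2 both alleles carried the high level, with 1290 paternal and 1129 maternal reads of Bnip3 and 2401 and 1273 of Slc2a1, against 243 and 227, and 667 and 327, in M-Z- male 1.

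None of the 16 differences of P-score, over the 4 genes, both sexes and the M-Z- and M-Z+ groups against M+Z+, passed an exact two-sided permutation test adjusted over the 8 of a sex. The lowest p was for Slc2a1 in M-Z- females, at 0.171 ± 0.0315 (SD, n = 4) against 0.133 ± 0.0135 in M+Z+ females (n = 6), a difference of 0.0384 (exact permutation p = 0.0238, adjusted p = 0.19). The largest difference, and the only one above 0.1, was 0.107 for Egln3 in M-Z+ males. These were at 0.0258 ± 0.105 (SD, n = 3) against -0.0816 ± 0.0673 in M+Z+ males (n = 4; exact permutation p = 0.171, adjusted p = 0.366). The smallest p that a single such test can give is 0.00476 with 4 against 6 females and 0.0286 with 3 against 4 males, so that no single male test could pass the adjustment. Nor could a single M-Z+ test in females, with 3 against 6 embryos.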

How the data were processed

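The deposited tables hold raw counts of reads over each gene in each embryo, obtained by the authors with Trim Galore, STAR 2.7.8a (uniquely mapped reads, end-to-end mode, mm9) and featureCounts of Subread 2.0.1 (strand-specific, a read counted for each gene it overlaps). The deposited allelic tables hold raw counts per gene and parental allele, made by the authors by calling variants, masking them in mm9, aligning with STAR and splitting reads with SNPsplit. Columns headed WT were read as M+Z+. Of the female M+Z+ allelic columns, 4 share header names, so these embryos carry no number there. The exon length column served for TPM.

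The 9 genes, the lists, the tests and the alternatives were chosen with earlier results of these data known. Counts were compared within each sex, over its 3 genotypes in 1 fit, in R 4.3.3 with edgeR 4.0.16 and limma 3.58.1 (quasi-likelihood test, filterByExpr, TMM scaling), adjusted by Benjamini-Hochberg over all tested genes, and sexes and interactions in 1 fit of all 23 embryos. A call required an adjusted p below 0.05 and a log2 fold change of 0.5 or more (0.3 between the sexes, none for interactions). The SE is the log2 fold change over the root of the F statistic. Each adjusted p of expression names its tool. The procedure was tested on simulated data. Alternatives were DESeq2 1.42.0, other scalings, no filter, other sets of embryos, each embryo left out and the replicate number as a block. P-scores were compared by exact permutation tests. A P-score call required an adjusted p below 0.05 and a difference of 0.1.

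The genes named were Zfp57, the 9 genes, list genes that were called, Hif1a, Epas1, Vhl, Egln1, Vegfa, Pgk1 and the 5 genes most like Car9, plus Hk2, Gpi1, Aldoa and Gys1 (adjusted p below 0.05 below the minimum change) and, named after their values were seen, genes that overlap a member or mark embryo 2, carbonic anhydrase genes at an unadjusted p below 0.05 and list genes whose groups did not overlap. Starts, ends and promoter windows come from the gene models of the tables and the mm9 genome. Reads carry no molecular identifiers, so depth limits cover counting error only. At the lowest total, 15155251, 3 counts are 0.198 CPM.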

Additional observations from a re-analysis of the deposited data

Results flagged for a closer look

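In 33 groups of 4 to 6 embryos (the 9 genes, Slc16a3 and Angptl4), 2 had an embryo far from the others of its group by Dixon's 95% criterion, which chance meets in about 1 of 20 groups. Ndrg1 was at 38.4 CPM in male M+Z+ replicate 3, against 25.5 to 27.7 in the other M+Z+ males. Slc16a3 was at 42.4 CPM in female M-Z- replicate 1, against 72 to 76.6 in the other M-Z- females, the embryo in which Car9 alone of the 9 genes was above the M+Z+ range. The M-Z- males, 3 in number, were too few for this criterion.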

How the results depend on the processing

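With no count filter, DESeq2, other scalings, other sets of embryos, no minimum change, another read minimum or the replicate number as a block, 137 values stayed within 1.5 times or 1 SD of the value given, and 16 moved. Between M-Z- and M+Z+ females the count of the 9 genes called was 0 with only M+Z+ embryos numbered 4 and above. That of the 72 list genes was 1 with those embryos and 5 with no minimum change. No label ties this split to a batch. In males it leaves 1 embryo, assumed to vary like the other groups, so its counts are not given. The paper marks some M+Z+ embryos of each sex with a prime and others without, and the labels used here do not say which. M+Z+ females 1 to 3 lay wholly above females 4 to 6 at Bnip3 (53.8 to 56.9 against 44.1 to 50.1 CPM), Adm (1.84 to 2.26 against 0.931 to 1.57 CPM), Ldha and Ankrd37. At the other members they overlapped. Between M-Z- and M+Z+ males the count of the 9 was 0 with only the compared groups. That of the list was 0 in that setting and 3 with no filter and with DESeq2. Over all 22139 genes DESeq2 called 118 higher and 64 lower there. Between M-Z- and M-Z+ males DESeq2 called 1 of the 9, and between M-Z+ and M+Z+ females no filter and DESeq2 each gave 1 list gene. Of the 5 genes most like Car9, 0 remained when deviations from the group means were used.

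The 9 genes were chosen on M-Z- against M+Z+, so their count there, 1 (Car9) in each sex with all embryos at a background of 0.285% and 0.264%, follows from the choice and tests nothing. Car9 was called with 4 of the 10 females left out, none of them M-Z-, and with 2 of the 7 males. With 1 embryo left out at a time, the count of the 9 ran from 0 to 2 in females and 0 to 8 in males for M-Z- against M+Z+, and from 0 to 1 and 0 to 5 against M-Z+. The list count ran from 0 to 4 and 0 to 40 against M+Z+, and from 0 to 1 and 0 to 20 against M-Z+. Calls over all genes with an embryo left out are given only for male M-Z- embryo 2. These counts therefore show only the dependence on single embryos. The log2 fold change of Car9 ran from 1.33 to 1.73 and 1.65 to 2.92 against M+Z+, from 1.01 to 1.63 and 1.40 to 2.67 against M-Z+, and from -0.10 to 0.52 and 0.11 to 0.48 for M-Z+ against M+Z+. The other counts of expression, those of the sexes and the interactions included, stayed at 0 with each embryo left out.

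Replicate numbers of the labels did not pair embryos: over 19 pairs of embryos with the same number, deviations from the group means correlated at -0.37 to 0.51, 4 of them over 0.1, and in 8 of 38 checks an embryo correlated best with its own number in the other group. With the replicate number as a block, the count of the 9 called between M-Z- and M+Z+ was 0 in both sexes, that of the list 1 in females, and no other count moved by over 1.5 times. Depth limits Car9, with 3 to 22 reads in embryos other than M-Z-, and P-scores at Car9.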
